A study of Homo sapiens with 6 samples.

Results

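Protein-coding genes that span more than 500 kb from annotated start to annotated end were described in LoVo, a line established from a human colorectal cancer, after knockdown of SRSF11. Members were chosen by the coordinates in the deposited gene table alone, as protein-coding genes with an end more than 500000 bases beyond the start, and 317 of 19951 protein-coding genes met the rule. The cells received either a control siRNA (si-NC) or one that targets SRSF11 (si-SRSF11), with 3 samples in each group, and no other agent or time point is given in the labels. Polyadenylated RNA was sequenced, and the authors deposited raw counts per gene. The study describes the RNA samples as independent and in pairs, and the labels do not say whether the 3 samples of a group came from separate cultures, so p-values measure only the spread between these samples. Which SRSF11 siRNA the sequenced cells had received is not given in the sources used here.

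Most of the length of such genes is intron. RNA polymerase needs hours to cross the longest of them, and the splicing machinery must join exons that lie very far apart while cryptic splice sites and polyadenylation signals between them are passed over. SRSF11 belongs to the serine/arginine-rich (SR) proteins, RNA-binding proteins that act in splice site choice, and the question of the comparison was whether long genes depend on it. Very long genes are best known from neurons, where many encode adhesion molecules, channels and scaffolds, and several lie at common fragile sites, regions where chromosomes break under replication stress.

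The 6 libraries held between 14369525 and 16685719 counts. SRSF11 itself had 87.6, 84.3 and 87.5 CPM (counts of a gene scaled to a common library size, with TMM factors) in si-NC replicates 1, 2 and 3 and 50.4, 48.5 and 49.5 CPM in si-SRSF11, a log2 fold change of -0.81 ± 0.054 (standard error, SE, and adjusted p = 6.1e-10, edgeR). The library labels thus matched the level of the targeted gene, which was lower in each si-SRSF11 library. In a figure of the study the library names stand under the reverse conditions, and the deposited labels were followed here. All 10 colorectal epithelial markers passed the filter on low counts, with KRT20 low at 0.414 to 1.28 CPM, and their summed level was 6290 to 6660 CPM in si-NC and 6370 to 6780 CPM in si-SRSF11. Of 10 markers of leukocytes, endothelium and fibroblasts, 3 passed the filter, DCN and PTPRC had 0 counts in all 6 libraries, and the summed level was 13.9 to 15.7 CPM in si-NC and 11.8 to 15.4 CPM in si-SRSF11.

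Of the 317 genes over 500 kb, 115 had at least 10 counts in at least 3 of the 6 libraries and were tested, which is 36.3% beside 64.0% of all protein-coding genes. Of the 202 that were not tested, 94 had 0 counts in all 6 libraries, and none had more than 55 counts over the 6 libraries together. The untested genes included the splicing factor RBFOX1, which spans 2470 kb, and the receptor phosphatase PTPRD, which spans 2300 kb. The 81 surface adhesion and axon guidance genes over 500 kb were mostly below the filter, with 13 tested, and of 30 channel, receptor and transporter genes 3 were tested. By contrast 37 of 54 cytoskeleton, scaffold and membrane traffic genes were tested. The results that follow concern the 115 genes that LoVo cells express at a measurable level.

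The tested genes spanned 501 to 2300 kb with a median of 685 kb, and introns made up a median of 98.4% of the span. Their longest intron had a median of 214 kb, beside 11 kb in the other tested protein-coding genes, and it exceeded 200 kb in 58 and 100 kb in 104 of the 115. It was taken as the longest in any annotated protein-coding transcript of the gene, and exons of other transcripts can lie within it. The exons of the tested long genes, joined over all annotated transcripts of a gene, covered a median of 11600 bases, beside 5020 in the other genes. This exon length is not that of any single mature transcript. Their median level was 3.10 on the log2 CPM scale, below the 4.45 of genes of 200 to 500 kb. The exons of 21 tested genes overlapped other genes over more than 5% of their bases, and whether reads were counted by strand is not given in the sources used here.

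The exon junctions across the longest introns are shown for genes whose results are described here, because they are the annotated joins over the greatest distance. Each line gives 15 exon bases before and 15 after the intron, 5′ to 3′ on the gene's strand, from GENCODE 29 transcripts. Capitals mark the last 3 bases of the exon before the intron, which take part in pairing with U1 small nuclear RNA, and the first base of the exon after it. RGS6, NRXN3, AUTS2, PTPRG and RABGAP1L were higher in si-SRSF11, DLG2 and GSE1 were lower, and CNTNAP2 and DMD, which with DLG2 are the longest tested genes, did not pass the test.
RGS6: atcgtttactgcAAAAttgaagacatcatt
NRXN3: accagtgcaatgATCCtggcgctacgtaca
AUTS2: ggaacaggctacTTCTgtgacagtgacagt
PTPRG: actgggcctactCTGGtgcctatggtcctg
RABGAP1L: attcttatcacaAAGGactcagcccaggag
DLG2: gtccaccactgtACTAagtatcgatatcaa
GSE1: accttactggtgCAGGcatgagccatgagc
CNTNAP2: ctccctccacgtCCCAaaaatgtgatgagc
DMD: gcacaattttctAAGGaataccagaaacac

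On GRCh38 the intron of RGS6 lies at chr14:71964876-72352094 on the plus strand and is intron number 1 of its transcript, with 387 kb. The intron of NRXN3 lies at chr14:78988142-79467220 on the plus strand, is number 12 and has 479 kb. The intron of AUTS2 lies at chr7:70134572-70435751 on the plus strand, is number 4 and has 301 kb. All of these flanks are coding exon sequence. The introns of PTPRG (chr3:61748983-61989624, plus strand) and RABGAP1L (chr1:174394146-174637374, plus strand) have 241 and 243 kb. The longest intron of DLG2 (chr11:84534732-85111660, minus strand, number 6) has 577 kb, and that of GSE1 (chr16:85357644-85633913, plus strand) has 276 kb. Those of CNTNAP2 (chr7:146116974-146774270, plus strand, number 1) and DMD (chrX:32364711-33020138, minus strand) are longer still, with 657 kb in CNTNAP2. Counts per gene do not show which transcripts were made in LoVo cells, and the intron bases themselves were not analysed here. The exon before the longest intron ended in AG, the letters of the usual splice donor consensus, in 52.2% of the 115 genes and in 56.5% of 12402 other tested protein-coding genes with an intron. It ended in AAG in 26.1% and in CAG in 18.3% of the long genes, beside 16.4% and 26.3% of the others, on the transcript strand only. In the set printed here, genes that rose and genes that fell both included exon ends with and without AG.

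In si-SRSF11, 21 of the 115 genes were higher and 4 were lower than in si-NC at an adjusted p under 0.05 (edgeR's quasi-likelihood test, Benjamini-Hochberg adjustment over 15801 tested genes). The 25 genes are 21.7% of those tested, beside 24.6% of all tested genes and 27.5% of the other tested protein-coding genes. By direction, 18.3% were higher and 3.48% were lower. All tested genes gave 13.2% higher and 11.4% lower, and the other tested protein-coding genes 15.3% and 12.1%. With scaling by library size alone, all tested genes gave 1585 higher and 2289 lower in place of 2081 and 1805, and the long genes gave 19 higher and 5 lower. The largest rise was that of RGS6 and the largest fall that of DLG2, and the changes were small, with a median rise of 1.25-fold among the 21 genes and a range from 1.13-fold to 2.38-fold. An adjusted p under 0.05 together with an absolute log2 fold change over 1 was reached by RGS6, MARCH1 and TMEM117, which is 2.61% beside 1.09% of all tested genes and 0.687% of the other tested protein-coding genes. These shares were not matched for level, and the 3 genes had low si-NC means of 1.47, 0.773 and 1.66 CPM. With scaling by library size alone 2 long genes reached both limits. All libraries of one group lay above all of the other in 29 genes upward (25.2%, beside 22.7% of the other tested protein-coding genes) and in 12 downward (10.4%, beside 19.2%), and the 25 called genes were among these 41. Because the RNA came from bulk cultures, a change in the number of cells that carry a transcript and a change in RNA per cell cannot be told apart.

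**Figure D1:**
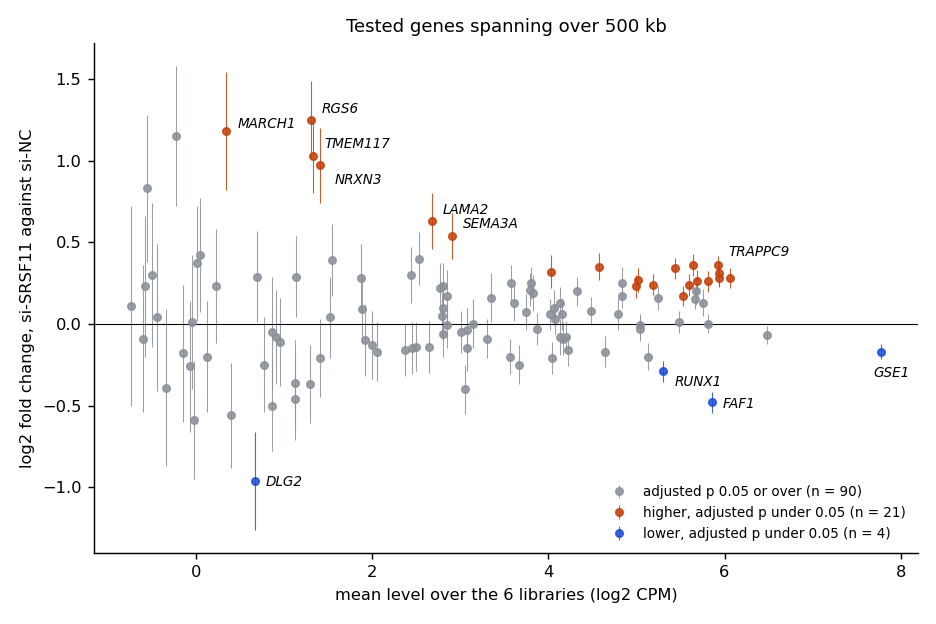
Log2 fold change of si-SRSF11 against si-NC (vertical axis, bars: standard error) against mean level in log2 CPM (horizontal axis) for the 115 tested genes over 500 kb. The 21 genes called higher fall into 2 ranges of level, and 4 genes were called lower. The 6 below 8 CPM had rises of 0.54 to 1.25, and the 15 at higher levels had rises of 0.17 to 0.36. Standard errors are larger at low levels, where only large changes can pass the test.

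The si-SRSF11 libraries were not alike over these genes. The median over the 115 genes of log2 CPM minus the si-NC mean was -0.002, -0.002 and 0.024 in the 3 si-NC libraries and 0.106, 0.075 and 0.018 in si-SRSF11 replicates 1, 2 and 3, so that replicate 3 lay within the si-NC range. Replicates 1 and 2 each stood above the si-NC mean in 72 genes and replicate 3 in 55. Replicate 3 was the lowest of the 3 si-SRSF11 libraries in 13 of the 21 genes called higher. Without it the median log2 fold change of the 115 genes was 0.12 in place of 0.06, and 28 genes were called in place of 25. In that fit all tested genes gave 1981 higher and 1890 lower, in place of 2081 and 1805.

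**Figure D2:**
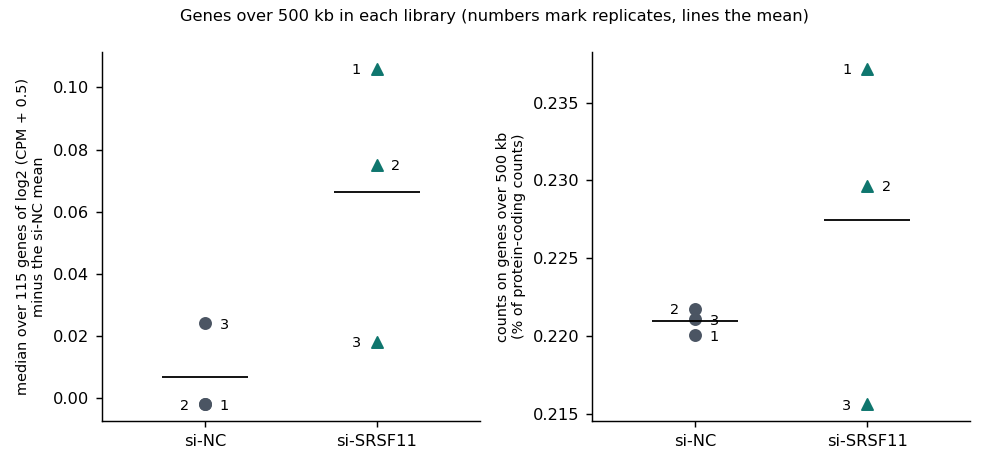
Genes over 500 kb in each library, as the median over the 115 tested genes of log2 CPM (with 0.5 added) minus the si-NC mean (left) and as the percentage of protein-coding counts on all 317 genes (right). Circles are si-NC and triangles si-SRSF11 libraries, with replicate numbers and group means as lines, and in both panels si-SRSF11 replicate 3 is not above the highest si-NC library.

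The share of protein-coding counts that fell on the 317 genes was 0.220%, 0.222% and 0.221% in si-NC and 0.237%, 0.230% and 0.216% in si-SRSF11 replicates 1, 2 and 3. The si-NC mean was 0.221% ± 0.00086 (SD, n = 3) and the si-SRSF11 mean 0.227% ± 0.0109 (SD, n = 3), so the groups overlapped and the difference was smaller than the spread in si-SRSF11. Mitochondrial genes took 6.60% to 6.83% of protein-coding counts in si-NC and 7.93% to 8.19% in si-SRSF11, and their part in the shares was not tested. With mitochondrial counts left out, the share on long genes was 0.236% to 0.238% in si-NC and 0.258%, 0.250% and 0.234% in si-SRSF11, which left replicate 3 below the si-NC libraries.

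Among the called genes, the largest rises were in genes of low level. Standard errors were larger there, so that only large changes could pass the test. RGS6, a regulator of G protein signalling (ENSG00000182732, chr14:71932439-72566529), had 1.86, 1.25 and 1.28 CPM in si-NC and 3.45, 3.38 and 3.62 CPM in si-SRSF11. The groups stood well apart, on 19 to 27 counts against 54 to 59 counts, and the log2 fold change was 1.25 (SE 0.24 and adjusted p = 6.2e-04, edgeR). TMEM117, a protein with several membrane passes (chr12:43835967-44389762), went from 1.86, 1.58 and 1.54 to 3.39, 3.63 and 3.13 CPM, with a log2 fold change of 1.03 (SE 0.23 and adjusted p = 0.0023, edgeR). MARCH1, a membrane-bound ubiquitin ligase, had 0.896, 0.461 and 0.963 CPM in si-NC and 2.43, 1.48 and 1.41 in si-SRSF11, where replicate 1 stood above the others. Its log2 fold change of 1.18 (SE 0.36 and adjusted p = 0.019, edgeR) lost its call without si-NC replicate 2 (adjusted p = 0.094) or without si-SRSF11 replicate 1 (adjusted p = 0.12).

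The role lists hold few genes each. Their counts stand beside 18.3% higher and 3.48% lower of all 115 long genes. All tested genes gave 13.2% and 11.4%, and the other tested protein-coding genes 15.3% and 12.1%. Of adhesion and guidance genes, 6 of 13 tested were higher and none was lower, with a median log2 fold change of 0.28. Proteins of this role sit on the cell surface or in the matrix around it. NRXN3, a neurexin that holds synapses together in neurons (chr14:78170373-79868290), had 2.00, 1.91 and 1.48 CPM in si-NC and 3.64, 3.63 and 3.31 CPM in si-SRSF11, a log2 fold change of 0.97 (SE 0.23 and adjusted p = 0.003, edgeR). LAMA2, a laminin chain of basement membranes, went from 5.17, 5.20 and 4.69 to 9.53, 7.81 and 5.95 CPM, with a log2 fold change of 0.63. Its si-SRSF11 libraries were widely spread, and without replicate 1 of that group the adjusted p was 0.07. SEMA3A, a secreted axon guidance cue, had 5.45, 6.78 and 6.03 CPM in si-NC and 10.3, 8.37 and 8.03 CPM in si-SRSF11, a log2 fold change of 0.54 that lost its call without si-NC replicate 1 (adjusted p = 0.051) or si-SRSF11 replicate 1 (adjusted p = 0.056).

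The receptor tyrosine phosphatases PTPRG and PTPRK, which remove phosphate groups from proteins at the cell membrane, rose at much higher levels. PTPRG (chr3:61561569-62297613) had 43.6, 42.1 and 45.3 CPM in si-NC and 59.5, 58.0 and 50.3 CPM in si-SRSF11, a log2 fold change of 0.36 (SE 0.068 and adjusted p = 4.9e-04, edgeR). Other genes overlap 8.25% of its exon bases. PTPRK had 63.0, 62.2 and 55.6 CPM in si-NC and 72.8, 76.5 and 70.3 CPM in si-SRSF11, with a log2 fold change of 0.28. A related member, PTPRN2, a protein of secretory granules, did not pass the test, with 0.05 ± 0.14 (standard error) and overlapping groups. The sixth gene called higher was TENM3, a teneurin that joins neurons, with a log2 fold change of 0.27. Of the 6 fits that left out 1 library, 2 no longer called it. CSMD3, a large membrane protein, had a log2 fold change of 1.15 with an adjusted p of 0.057 (edgeR) on less than 2 CPM in each library.

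**Figure D3:**
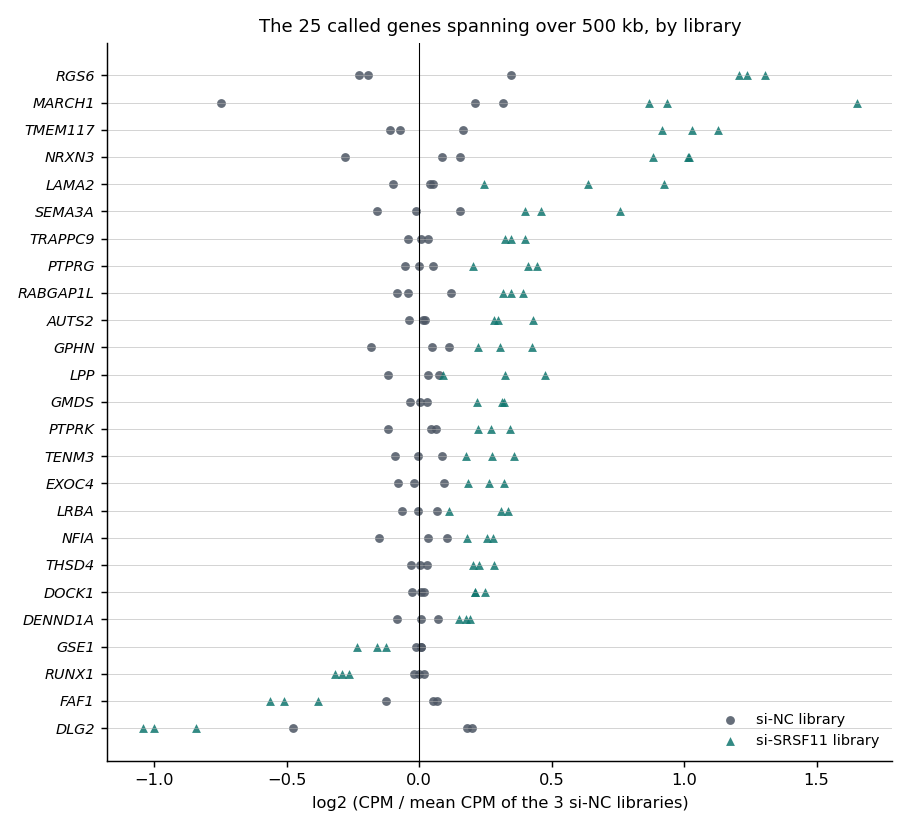
Each of the 25 called genes over 500 kb in each library, as log2 of CPM over the mean CPM of the 3 si-NC libraries (horizontal axis). Circles are si-NC and triangles si-SRSF11 libraries, the 21 higher genes stand above the 4 lower ones, and the groups do not overlap in any of them, with LPP and LRBA among those where the nearest libraries almost meet.

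Cytoskeleton, scaffold and traffic genes had the most tested genes, 37, of which 4 were higher and 1 lower, and a median log2 fold change of 0.07. TRAPPC9, a subunit of a complex that tethers transport vesicles (chr8:139727725-140458579), had the smallest adjusted p of the rises. It had 53.4, 51.6 and 54.4 CPM in si-NC and 70.1, 66.6 and 67.6 CPM in si-SRSF11, tightly grouped on both sides, with a log2 fold change of 0.36 (SE 0.056 and adjusted p = 6.4e-05, edgeR). LPP, a focal adhesion protein, rose from 56.1, 57.8 and 50.6 to 76.3, 68.7 and 58.4 CPM (log2 fold change 0.31), with si-SRSF11 replicate 3 only just above the si-NC libraries. EXOC4, an exocyst subunit that guides secretory vesicles to the membrane, rose by 0.26 in log2 fold change, from 50.3, 54.5 and 48.3 to 63.7, 61.3 and 58.0 CPM. EXOC6B, another exocyst subunit over 500 kb, had a log2 fold change of -0.08 and was not called. LRBA, a protein of vesicle traffic, rose by 0.26, with 10.3% of its exon bases shared with other genes.

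Of the 37 tested genes of this role, 21 had a log2 fold change above 0. DLG2 was the only one called lower. It encodes a scaffold of synapses (chr11:83455012-85627922, minus strand) and spans 2172910 bases, the third longest of the tested genes. It had 2.41, 1.51 and 2.38 CPM in si-NC and 1.02, 1.05 and 1.17 CPM in si-SRSF11, a log2 fold change of -0.96 (SE 0.30 and adjusted p = 0.023, edgeR). The fall rests on 23 to 37 against 16 to 19 counts, and the call was lost in 4 of the 6 fits that left out 1 library, with an adjusted p of up to 0.091. The other genes of greatest span did not pass the test. CNTNAP2, an adhesion protein of axons that spans 2304996 bases, had 19.3, 17.6 and 22.5 CPM in si-NC and 17.6, 18.7 and 16.7 CPM in si-SRSF11, with a log2 fold change of -0.16 and an adjusted p of 0.25 (edgeR). DMD, the gene of dystrophin, spans 2241764 bases and had 6.62, 7.43 and 6.29 CPM in si-NC and 9.72, 6.77 and 6.44 CPM in si-SRSF11, where replicate 1 alone stood out. Its log2 fold change was 0.17 (adjusted p = 0.48, edgeR) and became -0.04 without that library. UTRN, the gene of the related utrophin, had a log2 fold change of 0.25 with no overlap between the groups and an adjusted p of 0.083 (edgeR).

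Among signalling genes, 4 of 16 tested were higher and none was lower, and the median log2 fold change was -0.03. Beside RGS6 these were GPHN, the scaffold gephyrin that also makes molybdenum cofactor, DOCK1, which activates the small GTPase Rac, and DENND1A, which activates Rab GTPases. GPHN rose from 12.8, 15.0 and 15.7 to 19.5, 17.9 and 16.9 CPM, a log2 fold change of 0.32 (adjusted p = 0.027, edgeR) that 4 of the 6 fits without 1 library did not call. DOCK1 rose by 0.23, from 29, 29.9 and 29.7 to 34.2, 35.1 and 34.2 CPM, and 3 of the 6 fits did not call it. DENND1A, with 0.17, was called in 1 of the 6. PRKCA, a protein kinase C, had a log2 fold change of -0.20 and an adjusted p of 0.092 (edgeR), and its relative PRKCE had -0.05.

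Nuclear genes were divided, with 2 of 16 tested higher, 1 lower and a median of -0.02. AUTS2, a nuclear protein that works with a Polycomb complex (chr7:69598296-70793495), had 38.8, 37.2 and 38.6 CPM in si-NC and 51.5, 46.5 and 47.0 CPM in si-SRSF11, a log2 fold change of 0.34 (SE 0.064 and adjusted p = 5.1e-04, edgeR). NFIA, a transcription factor, rose by 0.24, a call lost without si-NC replicate 3 (adjusted p = 0.11) or si-SRSF11 replicate 2 (adjusted p = 0.051). RUNX1, a transcription factor of blood and epithelia (chr21:34787801-36004667, minus strand), fell from 44.1, 43.0 and 43.6 to 35.0, 35.6 and 36.3 CPM. Its libraries were close together within each group, and the log2 fold change was -0.29 (SE 0.063 and adjusted p = 0.0017, edgeR).

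Among enzymes and ubiquitin genes, 2 of 12 tested were higher and 1 lower, with a median of 0.06. FAF1, which binds ubiquitin and the Fas receptor and is not itself an enzyme (chr1:50437028-50960263, minus strand), had the smallest adjusted p of all 115 genes. It had 70.8, 61.9 and 70.0 CPM in si-NC and 47.5, 45.8 and 51.9 CPM in si-SRSF11, a log2 fold change of -0.48 (SE 0.065 and adjusted p = 1.2e-05, edgeR) that left 71.7% of the si-NC level. GMDS, which catalyses the opening step of GDP-fucose synthesis, rose from 54.1, 55.6 and 56.5 to 69.1, 64.4 and 68.8 CPM, with a log2 fold change of 0.28 (SE 0.057 and adjusted p = 7.9e-04, edgeR). MARCH1 was the other gene of this role called higher. None of the 3 channel genes tested, CACNA1C, KCNIP4 and RYR3, was called, with log2 fold changes of -0.11, 0.29 and 0.37.

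Of 18 tested genes in no role list, 3 were higher and 1 lower. Some of these, such as the enzyme ADK and the nuclear protein GSE1, could be placed in a role, so the role counts depend on how the lists were drawn. RABGAP1L, which turns off Rab GTPases, had 20.3, 19.7 and 22.7 CPM in si-NC and 26.0, 27.4 and 26.6 CPM in si-SRSF11. Its log2 fold change was 0.35 (SE 0.084 and adjusted p = 0.0035, edgeR). TMEM117 and the matrix protein THSD4 were the others called higher. GSE1, a chromatin-associated protein, had the most counts of all genes over 500 kb and the highest level per length, 16.4 CPM per kb of exon. It went from 230, 233 and 233 to 213, 208 and 197 CPM, a small fall of 0.17 on the log2 scale (SE 0.047 and adjusted p = 0.011, edgeR). The next highest per length were GMDS with 14.3 and ADK, adenosine kinase, with 14.1 CPM per kb of exon. ADK did not pass the test, with a log2 fold change of 0.01, an SE of 0.067 and overlapping groups.

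Genes at common fragile sites, a list that crosses the roles, had 20 tested of 40 members, with 5 higher and 1 lower and a median log2 fold change of 0.09, beside 18.3% higher and 3.48% lower of all 115 long genes. PTPRG, AUTS2, EXOC4, TENM3 and GPHN were the higher ones, and DLG2 the lower. FHIT and WWOX, which lie at the best known of these sites, had log2 fold changes of 0.10 ± 0.14 and 0.06 ± 0.095 (standard errors) and were not called. Next to the limit of the rule, KCNAB1 with 501437 bases and DNAH14 with 503030 bases had log2 fold changes of 0.42 and 0.07, and DIAPH3 with 498404 bases and RPS6KA2 with 497087 bases had -0.14 and 0.12. None of these was called.

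Against span, the share of genes called lower became smaller from class to class, while the share called higher varied less. Of genes up to 20 kb, 13.4% were higher and 14.8% lower, and of genes of 20 to 50 kb, 16.0% and 12.1%. The shares were 16.3% and 10.5% at 50 to 100 kb, 17.7% and 8.74% at 100 to 200 kb, and 16.6% and 6.82% at 200 to 500 kb. Over 500 kb they were 18.3% and 3.48%. The 19 tested genes that span over 1000 kb held 2 of the 21 higher and 2 of the 4 lower genes of this class. The decline in the share called lower was thus not seen among the few longest genes. The median log2 fold change went from -0.01 in the shortest class through 0.05 at 200 to 500 kb to 0.06 over 500 kb, differences that are small beside the quartiles within a class, -0.13 and 0.25 for the longest genes. Level and base composition moved with span too. The median log2 CPM was 4.94 in the shortest class and 3.10 in the longest, and the median GC content of the longest transcript 55.5% and 46.5%. With the genes split by level into 3 equal sets, 8.64% of genes up to 20 kb and 1.35% of 74 genes over 500 kb were lower in the lowest set, 17.3% and 3.23% of 31 in the middle set, and 19.2% and 2 of 10 in the highest set, where the long genes did not have the smaller share. The shares called higher were 5.17% and 9.46%, 12.8% and 9 of 31, and 22.7% and 5 of 10 in the same sets. Genes of 200 to 500 kb had 12.6%, 18.5% and 21.2% higher and 2.38%, 7.87% and 13.5% lower in the lowest, middle and highest set. In the lowest set, which holds 74 of the 115 long genes, the share called higher was thus larger at 200 to 500 kb than over 500 kb. Split by GC content in the same way, 9.38% of the shortest and 2.04% of 49 long genes were lower in the set of lowest GC, 12.6% and 5.56% of 54 in the middle set, and 17.8% and 0.0% of 12 in the highest. The shares called higher by GC were 16.4% and 20.4%, 15.5% and 13.0%, and 11.4% and 33.3%.

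**Figure D4:**
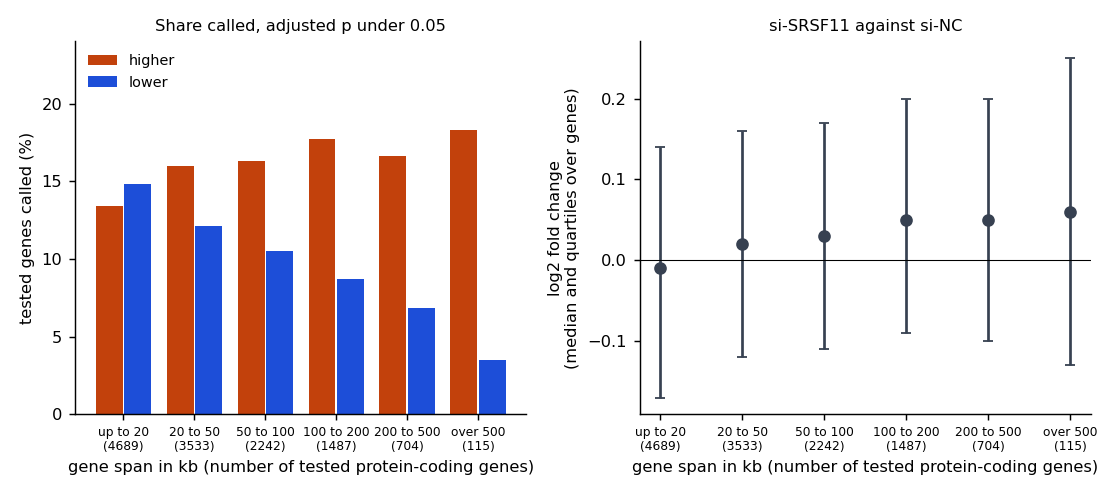
Tested protein-coding genes by span, with the percentage called higher and lower (left, bars) and the median and quartiles over genes of the log2 fold change (right, points and bars). The share called lower goes from 14.8% to 3.48% across the classes, and the quartiles of all classes include 0.

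Beside genes of like expression, those of the same decile of mean log2 CPM, the long genes had a log2 fold change that was higher by a median of 0.05 and a mean of 0.07, and 65 of 115 (56.5%) were above the median of their decile. Their like genes were called higher in 10.6% and lower in 8.63%, beside 18.3% and 3.48% of the long genes. With like genes chosen by level and exon length, the median difference was 0.02 and the shares of like genes were 12.4% and 6.44%, and by level and GC content in the same way the median difference was 0.06 and the shares 11.2% and 7.23%. Both of these used 5 classes of level in place of 10. The calls came mainly from well expressed genes, by a split at 20 CPM that was chosen after the data were seen. Of 33 long genes at or above 20 CPM, 14 were higher and 3 lower (42.4% and 9.09%), where other protein-coding genes of that level gave 19.4% and 15.3%. Of 82 long genes under 20 CPM, 7 were higher and 1 lower (8.54% and 1.22%), where other genes gave 8.49% and 6.78%. The median log2 fold change was 0.17 in the 33 genes, with 24 above 0, and 0.02 in the 82, with 43 above 0. The median standard error was 0.14 over all 115 long genes and 0.077 over the other genes.

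The 115 genes were also split at the median of their own lengths, with no test. Of the 58 genes at or below the median span, 11 were higher and 2 lower, and of the 57 above it 10 and 2. Their median log2 fold changes were 0.01 and 0.09. Split by the longest intron, the shorter side had 10 higher and 1 lower of 58, and the longer side 11 and 3 of 57. Their medians were 0.03 and 0.09. Over all tested protein-coding genes, those with a longest intron over 200 kb, 111 genes of which some span less than 500 kb, had 25 higher and 5 lower and a median of 0.10, where genes with no intron over 10 kb had 857 higher and 838 lower of 5955 and a median of 0.00. Between these limits, 813 were higher and 538 lower of 5076 at 10 to 50 kb, with a median of 0.03. At 50 to 100 kb there were 187 and 122 of 1135, and at 100 to 200 kb 81 and 36 of 493, both with a median of 0.04. These classes were not matched for level or GC content. Genes of 400 to 500 kb, just outside the rule, had 26 higher and 3 lower of 88, beside 21 and 4 of the 115 above it. The share called higher was thus larger just outside the rule than within it. Of all tested protein-coding genes, 15.4% were higher and 12.1% lower. The sets on the 2 sides of the rule were not matched for level, on which the share called depends. The median log2 CPM was 4.45 at 200 to 500 kb and 3.10 over 500 kb.

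Factors that act on long transcripts, in elongation, in topoisomerase activity and in control of premature polyadenylation, were read from the same fit. Of 76 listed genes 74 were tested, 14 were higher (18.9%) and 6 lower (8.11%), with a median log2 fold change of 0.06. Called in either direction were 27.0%, near the 27.4% of all tested protein-coding genes, of which 15.4% were higher and 12.1% lower. TOP2B, a topoisomerase that relaxes DNA ahead of the polymerase, had 47.2, 49.8 and 43.9 CPM in si-NC and 79.4, 81.3 and 72.5 CPM in si-SRSF11, a log2 fold change of 0.73 (adjusted p = 2.3e-08, edgeR). CPSF6, a subunit of the cleavage factor that steers polyadenylation site choice, rose by 0.70 (adjusted p = 2.9e-08, edgeR). SFPQ, an RNA-binding protein of long introns, had 197 CPM in each si-NC library and 271, 261 and 277 CPM in si-SRSF11 (log2 fold change 0.45, adjusted p = 2.3e-07, edgeR). The 6 lower genes, named here after their values were seen, were CPSF4, ELL2, SNRPA, TCEA1, CPSF2 and HNRNPL, with log2 fold changes from -0.35 to -0.24.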

How the data were processed

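Polyadenylated RNA was counted by gene in 6 libraries, and the authors deposited the raw counts, not normalized, under hg38 (GRCh38) gene coordinates. The aligner and the counting program are not given in the sources used here. Samples were grouped by the deposited labels. All 58735 gene IDs, coordinates and exon lengths equalled GENCODE 29, from which introns and exon sequence were taken, and exon overlap was computed with bedtools (version 2.31.1).

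Genes that reached 10 counts in 3 or more libraries were scaled by TMM and tested with edgeR (version 4.0.16, R version 4.3.3) on condition alone, with Benjamini-Hochberg adjustment over all tested genes. CPM were taken with TMM-scaled sizes of the tested genes' counts. The edgeR test gives no standard error. The SE printed here is the absolute log2 fold change divided by the square root of the F statistic of the test. The test was checked on simulated data. No set test was run. Alternatives were DESeq2 (version 1.42.0), other scalings and filters, other span limits, a block for the replicate number, and fits without each single library.

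Named were SRSF11, the called long genes with the 10 largest rises and 10 largest falls, the 3 longest, the 3 with highest CPM per kb of exon, the 2 on each side of 500000 bases and up to 3 called genes of each role list. Other genes were named after their values were seen. The members and lists were chosen with earlier results of these data known.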

Additional observations from a re-analysis of the deposited data

How the results depend on the processing

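Of the 25 called long genes, 15 were called whichever library was left out (6 fits), 12 higher and 3 lower, and all 25 kept their direction. Over these fits the number called higher ranged from 15 to 24 and lower from 3 to 6, the median log2 fold change from 0.03 to 0.12, and the median difference from like genes from 0.03 to 0.12, highest without si-SRSF11 replicate 3. Among all tested genes the same fits called 1473 to 1981 higher and 1268 to 1890 lower, beside 2081 and 1805 with all libraries.

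With no filter on low counts, which admits 223 long genes, the median log2 fold change was -0.04 and the difference from like genes -0.03, so the direction of the median depends on the filter. With at least 50 counts in 3 libraries the difference from like genes was 0.09. Members chosen over 400 kb gave 47 higher and 7 lower of 203 tested, a median of 0.10 and a difference of 0.10. Over 750 kb there were 6 higher and 2 lower of 41, with 0.13 and 0.11, and over 1000 kb 2 higher and 2 lower of 19, with 0.10 and 0.11. A longest intron over 200 kb gave 0.10 for both. The cause of these differences was not tested.

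The log2 fold change of ADK changed sign to -0.02 with scaling by library size alone, to -0.03 without si-NC replicate 2 and to -0.02 without si-SRSF11 replicate 3, and that of DMD to -0.04 without si-SRSF11 replicate 1. Over the fits without 1 library they ranged from -0.03 to 0.08 in ADK and from -0.04 to 0.27 in DMD. DESeq2 called 22 of the 25 genes and gave no adjusted p for 14 tested genes. Whether replicate numbers pair the samples could not be decided. The correlations of same-numbered deviations were 0.015, 0.036 and 0.040, and those of different numbers lay between -0.034 and -0.003. Each sample thus correlated best with its own number, but all values were small and each group held 3 samples. With the replicate block 26 long genes were called, among them the 25, and 2147 higher and 1889 lower of all genes.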
